A study of Mus musculus with 3 samples.

Results

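The genes described here encode the subunits, activators and assembly factors of the proteasome. They were all gene symbols in the count files that begin with Psma, Psmb, Psmc, Psmd, Psme, Psmf or Psmg followed by a digit, which gave 50 of 32531 listed genes. The RNA came from the cortex-amygdala transition zone of adult mice, and no treatment was given. The mice were of a line that tags ribosomes with an EGFP-L10a fusion, Lypd1-TRAP OI82, so the tagged ribosomes come from the cells in which the Lypd1 transgene is active. Tagged polysomes were captured with antibodies to EGFP, and there was 1 group of 3 immunopurified libraries, called replicates 1, 2 and 3. The design text names 3 control mice for these 3 libraries, without saying which library is which mouse, and the SD is the spread between the libraries. The labels give no other genotype, treatment or time, so levels within the captured RNA are described, with no contrast of conditions.

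The proteasome is the large protease that degrades proteins marked with ubiquitin. Its core particle is a barrel of stacked rings. The outer rings of alpha subunits (Psma genes) gate the entrance, and the inner rings of beta subunits (Psmb genes) hold the catalytic sites. The regulatory particle caps the barrel. Its base has a ring of ATPases (Psmc genes) that unfold the substrate and larger subunits that bind ubiquitin, and its lid removes the ubiquitin chain (Psmd genes). Alternative caps (Psme genes) open the gate without ATP. In immune cells, and in other cells exposed to interferon, 3 inducible beta subunits replace the constitutive catalytic ones. In neurons the proteasome takes part in the turnover of synaptic proteins.

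Levels are given in CPM, in which each library is scaled to the same sum over all genes, and comparisons between genes use CPM per kb of merged annotated exons. The libraries held 8668527 to 24690301 assigned counts, with the fewest in replicate 3. Replicate 3 also had the largest share of reads outside counted features, 45.3% against 31.4% and 25.6% in replicates 1 and 2. The neuronal markers fixed for the check of the label (Snap25, Syt1, Rbfox3, Map2, Syn1 and Stmn2) were all detected and summed to 11302, 16660 and 8983 CPM in replicates 1, 2 and 3. The 6 astrocyte markers summed to 885, 367 and 449 CPM and the 6 oligodendrocyte markers to 336, 199 and 180.3 CPM, so RNA of other cell types was measurable. In such bulk samples fewer cells of a type and less RNA per cell cannot be told apart.

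Promoters are shown for the genes of the comparison between constitutive and inducible catalytic subunits, those of the constitutive catalytic subunits Psmb5 and Psmb6 and of the inducible catalytic subunits Psmb8, Psmb9 and Psmb10. Each window holds 250 bases before and 50 after the RefSeq start (GRCm38.p6, printed 5′ to 3′ on the strand of the gene). The windows lie at chr14:54617946-54618245 on the minus strand for Psmb5, at chr17:34197945-34198244 on the plus strand for Psmb8 and at chr11:70525107-70525406 on the plus strand for Psmb6. Those of Psmb9 and Psmb10 lie at chr17:34187281-34187580 and chr8:105938343-105938642 on the minus strand. Capitals mark matches, on either strand, to TGACNNNGC, the core of the antioxidant response element bound by Nfe2l1 and Nfe2l2, and to TTCNNNGAA, the core of the interferon-activated site.
Psmb5: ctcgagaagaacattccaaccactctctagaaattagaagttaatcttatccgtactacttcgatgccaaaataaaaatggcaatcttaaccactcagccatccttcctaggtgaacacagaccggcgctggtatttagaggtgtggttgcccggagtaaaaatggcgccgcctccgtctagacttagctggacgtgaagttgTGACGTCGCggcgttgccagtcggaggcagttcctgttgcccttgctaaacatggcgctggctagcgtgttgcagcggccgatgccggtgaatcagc
Psmb8: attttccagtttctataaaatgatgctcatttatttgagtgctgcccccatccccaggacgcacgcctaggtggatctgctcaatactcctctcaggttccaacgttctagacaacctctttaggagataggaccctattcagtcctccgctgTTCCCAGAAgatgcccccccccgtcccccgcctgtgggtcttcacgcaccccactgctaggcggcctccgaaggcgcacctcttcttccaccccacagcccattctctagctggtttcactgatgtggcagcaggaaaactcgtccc
Psmb6: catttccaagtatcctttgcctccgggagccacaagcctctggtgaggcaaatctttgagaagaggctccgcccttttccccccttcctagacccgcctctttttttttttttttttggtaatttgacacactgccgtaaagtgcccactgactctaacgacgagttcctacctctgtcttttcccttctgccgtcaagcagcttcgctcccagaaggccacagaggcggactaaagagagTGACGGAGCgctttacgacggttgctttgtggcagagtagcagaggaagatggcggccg
Psmb9: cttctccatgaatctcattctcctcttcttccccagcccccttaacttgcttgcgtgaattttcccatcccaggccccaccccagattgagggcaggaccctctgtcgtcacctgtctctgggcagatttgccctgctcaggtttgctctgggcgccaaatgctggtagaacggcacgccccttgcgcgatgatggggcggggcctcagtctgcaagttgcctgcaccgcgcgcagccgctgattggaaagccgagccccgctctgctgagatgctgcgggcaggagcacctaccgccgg
Psmb10: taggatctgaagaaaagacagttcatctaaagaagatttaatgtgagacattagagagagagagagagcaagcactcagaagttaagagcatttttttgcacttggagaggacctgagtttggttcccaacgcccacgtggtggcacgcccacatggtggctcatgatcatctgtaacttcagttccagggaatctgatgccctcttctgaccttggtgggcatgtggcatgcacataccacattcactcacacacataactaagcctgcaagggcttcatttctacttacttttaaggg
The windows of Psmb5 and Psmb6 each hold 1 match to TGACNNNGC, and the window of Psmb8 holds 1 match to TTCNNNGAA. No match to either stands in the windows of Psmb9 and Psmb10. Over all genes with a window 13.99% hold TGACNNNGC and 9.55% hold TTCNNNGAA, so these matches set no gene apart. Psmb7 is not among the genes with a window used here.

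Every subunit gene of the standard particle with a Psm symbol was present in the captured RNA. Detection was set at a minimum of 1 CPM in all 3 libraries. By that rule 44 of the 50 members were detected, against 39.3% of all listed genes. They included all 14 genes of the constitutive core, all 6 ATPases, all 11 non-ATPase subunits of base and lid with a Psmd symbol and 4 of 5 activator genes. The 6 members that were not detected were Psma8, Psmb8, Psmb9, Psmb11, Psme2b and Psmg4. Together the 50 members took 0.248 ± 0.0507% of assigned counts (SD, n = 3), and their shares were 0.244, 0.301 and 0.199% in replicates 1, 2 and 3.

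Genes were ranked by CPM per kb within each library, and the percentiles were averaged. On average each of the 35 standard genes (core, ATPases, base, lid and Psme1 to Psme4) stood above the middle of the detected genes. Their mean percentile among the 11719 detected genes with an annotated length ran from 54.5 for the lid gene Psmd13 to 96.4 for the ATPase Psmc5, with a median of 86.1. In CPM per kb the 35 genes had a median of 23.0 in replicate 1, 25.9 in replicate 2 and 16.4 in replicate 3. For the detected genes the medians were 5.80, 5.49 and 6.13. In every library the standard genes thus centred above the detected genes as a whole. In single libraries Psmd13 in replicate 3, at 5.16 CPM per kb, and Psme4 in replicate 1, at 5.63, lay below the median of the detected genes.

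The subunits of core, base and lid form a particle with each in fixed number, whereas the activators are alternative caps. Transcripts of the standard genes were not at equal levels. Psmc5 had the highest mean at 57.0 ± 8.68 CPM per kb and Psmd13 the lowest at 6.99 ± 2.29, a ratio of 8.15. The range within a class was 4.82-fold for the core, 5.11-fold for the ATPases, 7.07-fold for the Psmd subunits and 5.15-fold for the activators. Which genes stood at the ends depended on the length used. With the length of the longest protein-coding transcript the ratio of highest to lowest was 7.69, and the extremes were Psmb7 and Psme4.

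**Figure D1:**
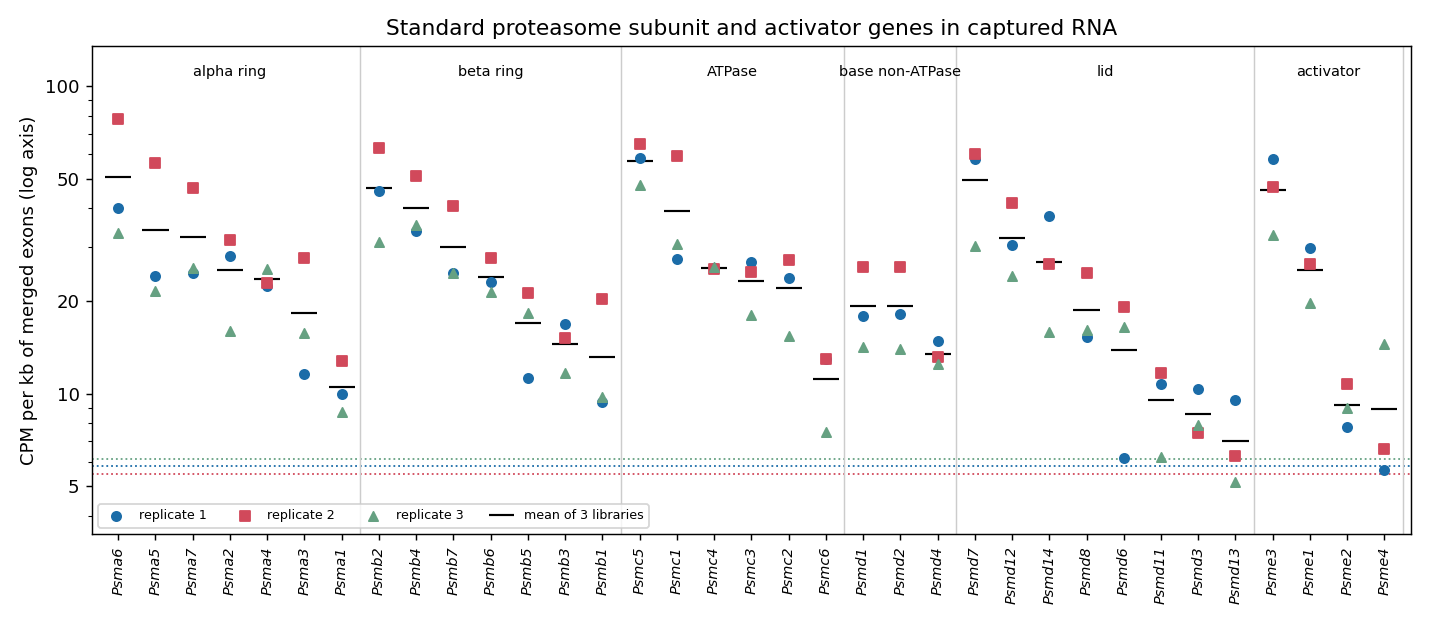
Level of the 35 standard subunit and activator genes in CPM per kb of merged exons (log axis), by class, with 1 symbol per library, a bar for the mean of 3 libraries and dotted lines for the median of detected genes in each library. Means run from 6.99 for Psmd13 to 57.0 for Psmc5, and the order of the libraries differs between genes.

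In the alpha ring, the 7 constitutive genes had means of 30.9 to 99.0 CPM. Psma7, which encodes the α4 subunit, measured 75.7, 143 and 78.4 CPM in replicates 1, 2 and 3. Psma2 (α2) measured 103, 116 and 58.7 CPM. Psma3 (α7) measured 45.2, 107 and 61.1 CPM. For Psma7 and Psma3 replicate 2 was set apart from the other two libraries, and for Psma2 replicate 3 was. Psma6 (α1) measured 49.4, 96.2 and 41.2 CPM and had the highest level of the ring per length, 50.5 ± 24.0 CPM per kb. Psma5 (α5) measured 32.0, 74.4 and 28.5 CPM. Both were highest in replicate 2. Psma4 (α3) was even across the libraries, at 53.1, 54.3 and 60.2 CPM. Psma1 (α6), at 30.9 ± 6.04 CPM, was the lowest of the ring per length, at 10.5 ± 2.05 CPM per kb. Psma8, which replaces Psma7 in the testis, had 0 counts in each library, and with that total a level of up to 3 counts cannot be told from 0 (counting error only), or 0.162, 0.122 and 0.346 CPM for replicates 1, 2 and 3.

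In the beta ring, the constitutive genes had means of 15.2 to 103 CPM. Psmb7 (β2, the trypsin-like site) measured 84.4, 139 and 84.6 CPM in replicates 1, 2 and 3. Psmb6 (β1, the caspase-like site) measured 43.0, 51.6 and 39.9 CPM. Psmb5 (β5, the chymotrypsin-like site) measured 10.1, 19.1 and 16.5 CPM. Replicate 2 was the highest library for each of these 3 catalytic genes. Per length Psmb5 reached 16.9 ± 5.14 CPM per kb, above Psmb3 (14.5 ± 2.64) and Psmb1 (13.2 ± 6.24), differences smaller than these spreads. With the length of the longest transcript, or of the longest protein-coding one, Psmb5 was the lowest core gene. Gene counts leave out reads that aligned to several places, and Psmb5 has an annotated copy, Gm3375, that matches 796 bases of its transcript at 98.9% identity. In addition 12.1% of its exon bases overlap Mir686. How far either lowers its count was not tested. Among the structural genes Psmb2 (β4) and Psmb4 (β7) led, at 46.5 ± 15.95 and 40.03 ± 9.58 CPM per kb. Psmb1 (β6) measured 43.1, 93.6 and 44.9 CPM in replicates 1, 2 and 3, and Psmb3 (β3) 38.7, 34.8 and 26.8 CPM. Psmb1 was set apart in replicate 2, while Psmb3 was the one gene of the ring that was not highest there.

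The inducible catalytic subunits of the immunoproteasome were at trace levels, with the exception of Psmb10. Psmb8, the inducible partner of Psmb5, 14.7% of whose exon bases overlap Gm20496 on the opposite strand, had 11, 3 and 4 counts in replicates 1, 2 and 3, which is 0.594, 0.122 and 0.461 CPM. Psmb9, the partner of Psmb6, had 2, 2 and 27 counts, which is 0.108, 0.081 and 3.11 CPM. So Psmb9 was near the floor of 3 counts in replicates 1 and 2 and above it in replicate 3. Psmb10, the partner of Psmb7, measured 10.4, 18.0 and 9.46 CPM, and was highest in replicate 2, as most core genes were. The thymus-specific subunit Psmb11 had 0, 2 and 3 counts.

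Each constitutive gene exceeded its inducible partner in 3 of 3 libraries. Psmb5 minus Psmb8 was 6.31 ± 0.97 on the log2(CPM per kb + 0.1) scale (SD, n = 3), and flipping its sign in every combination of libraries gave an exact permutation p of 0.25, two-sided. For Psmb6 minus Psmb9 it was 6.60 ± 1.83 (exact permutation p = 0.25) and for Psmb7 minus Psmb10 2.03 ± 0.10 (exact permutation p = 0.25). With 3 libraries this test cannot give a p below 0.25, and the value adjusted over the 3 pairs by Benjamini-Hochberg was 0.25. In each pair the lowest library of the constitutive gene lay above the highest library of its partner. How often other pairs of genes do so was not counted. The partners at trace levels lie near the pseudocount, which sets the size of the difference, and with a pseudocount of 1 Psmb5 minus Psmb8 was 3.96 and Psmb6 minus Psmb9 4.31. The ratio of CPM per kb, with an exact 95% interval for counting error only, was 3.87 (3.501 to 4.28) for Psmb7 over Psmb10 in replicate 2, and 4.06 and 4.46 in replicates 1 and 3. For Psmb5 over Psmb8 it was 63.9 (34.9 to 130.3) in replicate 1, 590.5 (201 to 2873) in replicate 2 and 134 (51.4 to 500.2) in replicate 3. For Psmb6 over Psmb9 it was 779 (215 to 6445) in replicate 1, 1246 (344 to 10303) in replicate 2 and 25.1 (16.9 to 38.6) in replicate 3. The last of these was lower than in the other libraries beyond counting error. Without replicate 3, Psmb6 minus Psmb9 was 7.65. With the length of the longest protein-coding transcript, Psmb7 minus Psmb10 was 3.21.

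**Figure D2:**
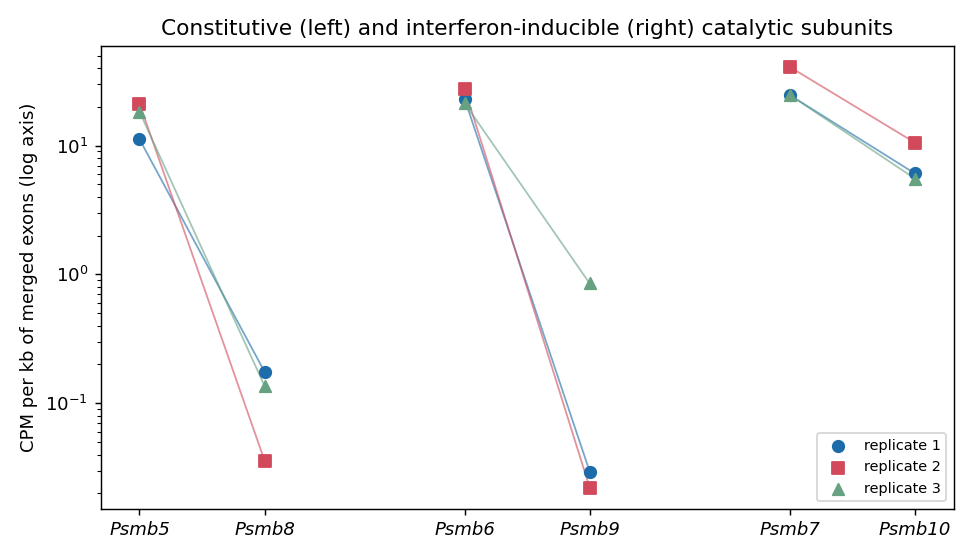
CPM per kb of merged exons (log axis) of the constitutive catalytic subunits Psmb5, Psmb6 and Psmb7 and of their inducible partners Psmb8, Psmb9 and Psmb10, with 1 symbol and line per library. Every line falls from left to right, least for Psmb7 and Psmb10, and Psmb9 in replicate 3, with 27 counts, lies above its 2 counts in each of the other libraries.

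Summed per kb of merged exons, Psmb8, Psmb9 and Psmb10 made up 9.81 ± 0.701% of the 6 catalytic genes (n = 3). In each library Psmb10 was the largest part of the inducible sum. Without length correction the inducible genes summed to 11.1, 18.2 and 13.0 CPM in replicates 1, 2 and 3. The constitutive ones summed to 137, 210 and 141 CPM. The share depends on the length used, and it was not computed with other lengths. Microglial and endothelial cells can express the inducible subunits, and RNA of their markers was counted too. The 9 microglial markers summed to 41.1, 25.6 and 35.8 CPM in replicates 1, 2 and 3, with 4 of 9 detected, and C1qa and Ptprc had 0 counts in replicate 1. The 8 endothelial markers summed to 54.5, 60.5 and 33.5 CPM, with 6 of 8 detected. Of the list of interferon and antigen presentation genes 6 of 9 were detected. B2m, the light chain of class I molecules, measured 49.8, 26.6 and 19.7 CPM, and H2-D1, a class I heavy chain, 15.4, 7.53 and 28.8 CPM. H2-D1 was highest in replicate 3, as was Psmb9, and B2m was lowest there. The neighbour of Psmb9, the peptide transporter gene Tap1, measured 0.216, 11.02 and 6.11 CPM, and 5.79% of the exon bases of Psmb9 overlap its exons on the opposite strand. The strand setting was not given, so reads of that stretch cannot be told apart. The part of other cell types in the level of Psmb8, Psmb9 or Psmb10 was not tested.

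The ATPase ring was carried by 6 genes with means of 39.0 to 111 CPM. Psmc2 (Rpt1) measured 119, 137 and 77.5 CPM in replicates 1, 2 and 3. Psmc5 (Rpt6), the highest per length, measured 81.6, 90.2 and 66.3 CPM. Psmc1 (Rpt2), whose tail helps to open the gate of the core, measured 52.9, 115 and 59.3 CPM. Psmc1 was set apart in replicate 2, whereas Psmc2 and Psmc5 were lowest in replicate 3. Psmc4 (Rpt3) was the most even of the members, at 55.4, 54.9 and 55.7 CPM. Psmc3 (Rpt5) measured 60.5 ± 12.1 CPM and Psmc6 (Rpt4) 39.0 ± 11.1 CPM, the lowest of the ring also per length (11.1 ± 3.17 CPM per kb). Psmc3ip shares the prefix but encodes a meiotic recombination factor and no subunit. It measured 6.53, 12.8 and 2.88 CPM, and 21.2% of its exon bases overlap Mlx on the other strand.

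Among the non-ATPase subunits of the base, Psmd1 (Rpn2), a large scaffold, measured 130, 188 and 103 CPM in replicates 1, 2 and 3, a mean of 140.4 ± 43.5. Psmd2 (Rpn1), the scaffold that docks ubiquitin shuttles, measured 73.5, 104 and 56.2 CPM. Per length both stood at 19.3 CPM per kb (SD 5.99 and 6.02). The ubiquitin receptor Psmd4 (Rpn10) was lower and even, at 41.6, 36.9 and 35.1 CPM, and 13.5 ± 1.21 CPM per kb.

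Per length the lid held the widest range of the classes and the lowest standard gene. Psmd7 (Rpn8), the partner of the deubiquitinase, measured 131, 136 and 68.1 CPM in replicates 1, 2 and 3 and stood at 49.5 ± 16.8 CPM per kb. Psmd14 (Rpn11), the deubiquitinase itself, measured 106, 74.6 and 44.8 CPM, and 26.7 ± 10.9 CPM per kb. Both were lowest in replicate 3, and Psmd14 was highest in replicate 1. Psmd12 (Rpn5) stood between them per length, at 32.1 ± 8.86 CPM per kb. Psmd6 (Rpn7) measured 17.3, 53.5 and 46.0 CPM and was low in replicate 1 alone. Psmd8 (Rpn12) measured 57.1 ± 15.8 CPM, Psmd11 (Rpn6) 61.0 ± 18.8 CPM, Psmd3 (Rpn3) 42.6 ± 7.65 CPM and Psmd13 (Rpn9) 23.6 ± 7.73 CPM. The last 3 of these were among the lowest standard genes per length, at 9.55 ± 2.94, 8.57 ± 1.54 and 6.99 ± 2.29 CPM per kb, and 10.1% of the exon bases of Psmd13 overlap Sirt3.

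The activators differed among themselves. Psme3 encodes PA28γ, an activator found in the nucleus. It measured 171, 139 and 96.8 CPM in replicates 1, 2 and 3, or 46.0 ± 12.6 CPM per kb. Psme1 and Psme2 encode the α and β chains of PA28, which form 1 mixed ring and can be induced by interferon. Psme1 measured 65.8, 58.1 and 43.6 CPM and Psme2 13.8, 19.0 and 15.8 CPM. Per length both lay below Psme3 in each library. Psme2 has a copy, Psme2b, that matches 794 bases at 99.4% identity, so the split between them is uncertain. Psme2b itself measured 8.31, 0.689 and 1.96 CPM. Psme4 encodes PA200, a single-chain activator. It measured 47.2, 55.5 and 122 CPM, and replicate 3 was far above the others. Per length it stood at 8.92 ± 4.86 CPM per kb, near the 9.17 ± 1.48 of Psme2, a difference smaller than these spreads.

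Assembly and regulatory factors varied. Of the chaperones that build the core, Psmg2 measured 16.1 ± 3.25 CPM, Psmg1 7.40 ± 2.88 CPM and Psmg3 4.67 ± 1.995 CPM. Psmg4 had 2, 130 and 13 counts in replicates 1, 2 and 3, or 0.108, 5.27 and 1.4997 CPM, so it failed the detection rule through replicate 1. Of the chaperones that build the base, Psmd5 measured 55.0 ± 16.3 CPM and Psmd10, also called gankyrin, 11.1 ± 4.17 CPM. Psmd9 (p27) measured 48.7, 13.97 and 19.0 CPM and was high in replicate 1 alone. Of its exon bases, 25.5% overlap Gm26745 on the opposite strand. Psmf1, which encodes the proteasome-binding protein PI31, measured 30.0, 20.5 and 35.1 CPM.

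Set against each other per length, core and ATPase genes were at similar levels and both stood above the Psmd subunits and the activators, which did not hold without length correction. The median over the genes of a class was taken within each library on the log2(CPM per kb + 0.1) scale. Core minus ATPase was −0.15, 0.17 and −0.0046 in replicates 1, 2 and 3 (mean 0.0031 ± 0.16), which was smaller than its spread. Core minus Psmd subunits was 0.62, 0.26 and 0.60 (0.49 ± 0.20) and core minus activators 0.62, 0.81 and 0.34 (0.59 ± 0.23), each positive in 3 of 3 libraries and larger than its spread. ATPase minus Psmd subunits was 0.77, 0.093 and 0.60 (0.49 ± 0.35) and ATPase minus activators 0.77, 0.64 and 0.34 (0.59 ± 0.22), also positive in 3 of 3 libraries. ATPase minus Psmd subunits was 0.22 ± 0.27 with the longest transcript as length and 0.35 ± 0.36 without replicate 1, each smaller than its spread. Psmd subunits minus activators was 0.0054, 0.55 and −0.26 (0.10 ± 0.41), with no common sign. Alpha minus beta ring was 0.094 ± 0.090. These are descriptions over chosen genes, with no p. Without length correction, core minus Psmd subunits was −0.15 ± 0.36 and core minus activators −0.088 ± 0.59. The same values for the ATPases were 0.070 ± 0.23 and 0.14 ± 0.30, within their spread. With the longest protein-coding transcript as length, alpha minus beta ring was −0.66 ± 0.23.

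**Figure D3:**
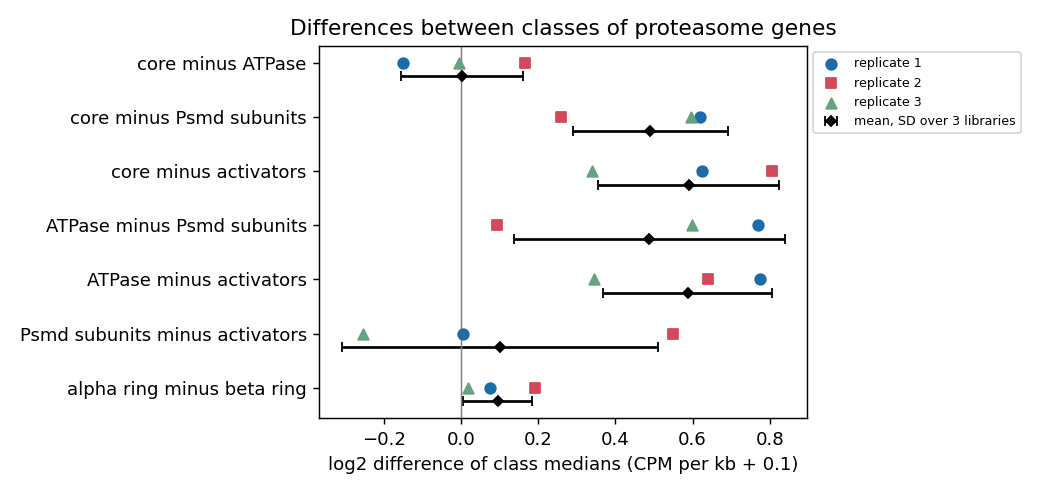
Differences between medians of classes on the log2(CPM per kb + 0.1) scale (x axis), with 1 symbol per library and a diamond with bars for the mean and SD over 3 libraries. Core and ATPase genes lie above Psmd subunits and activators in each library, while core minus ATPase (mean 0.0031) and Psmd subunits minus activators (mean 0.10) straddle 0.

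All genes whose mean reached 1 CPM, 47 of the 50 members among them, were tested for variation between the libraries beyond the dispersion trend. That trend was fitted over all tested genes from the same 3 libraries. The common dispersion was 0.413, a coefficient of variation of 0.643. A gene not called may thus vary as widely as other genes of its level. In edgeR's goodness-of-fit test with Benjamini-Hochberg adjustment 0 of the 47 were called, against 0.209% of the 15336 genes tested. The lowest adjusted p among the members was 0.724, for Psmd9. At an unadjusted p under 0.05 there were 0 members, against 7.82% of all genes tested, and DESeq2's dispersion outliers also held 0. With a common dispersion 1 of 47 members, Psmb9, was called (adjusted p = 0.0247 by edgeR's goodness-of-fit test), and so were 780 of the 15336 genes tested. The median range of log2(CPM + 1) over the libraries was 0.86 for the tested members. It was 1.03 for all tested genes and 0.85 for the tested genes whose mean reached 10 CPM.

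More members were highest in replicate 2 than in either other library. Of the 47 tested members 28 (59.6%) were highest in replicate 2, against 29.2% of all tested genes. In replicate 1 there were 13 (27.7%, against 31.6%) and in replicate 3 there were 6 (12.8%, against 39.2%). The median deviation of a member from its own mean on the log2(CPM + 1) scale was −0.035, 0.34 and −0.28 in replicates 1, 2 and 3. Over all tested genes it was −0.020, −0.071 and 0.096. With TMM scaling the medians of the members were −0.020, 0.41 and −0.35, and 31 members were highest in replicate 2, against 33.6% of all genes.

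By class the counts were as follows. Of the 14 core genes 12 were highest in replicate 2, all but Psma4 and Psmb3, with a median deviation there of 0.43. Of the 6 ATPases 3 were, and of the 11 Psmd subunits 7. Of the 4 standard activators 1 was, Psme2. No Psmd subunit was highest in replicate 3. Psme4 went the other way, with a deviation of 0.82 in replicate 3, the largest of the standard genes there.

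Genes of other housekeeping complexes also had their highest medians in replicate 2 and their lowest in replicate 3. Cytosolic ribosomal protein genes had median deviations of 0.087, 0.27 and −0.37 in replicates 1, 2 and 3 (79 genes), genes of respiratory complex I 0.045, 0.40 and −0.38 (36 genes) and chaperonin genes 0.18, 0.19 and −0.34 (8 genes). Transcript length moved with this order of the libraries in part. Tested coding genes whose longest coding transcript was under 1500 bases had medians of −0.040, 0.15 and −0.11 (1511 genes), and the 25 members of that length −0.21, 0.35 and −0.24. For 1500 to 3000 bases all genes had medians of −0.045, −0.020 and 0.073 (4078 genes) and the 18 members 0.22, 0.34 and −0.37. The summed neuronal markers were highest in replicate 2 and lowest in replicate 3 (11302, 16660 and 8983 CPM). Snap25 made up most of that sum, at 7606, 13127 and 6317 CPM. The median of the 6 neuronal markers was 843, 828 and 553 CPM, highest in replicate 1. The sum of the astrocyte markers was lowest in replicate 2 (885, 367 and 449 CPM). The part of these cell types, of length, of depth and of the reads outside features, which were most frequent in replicate 3, was not tested.

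**Figure D4:**
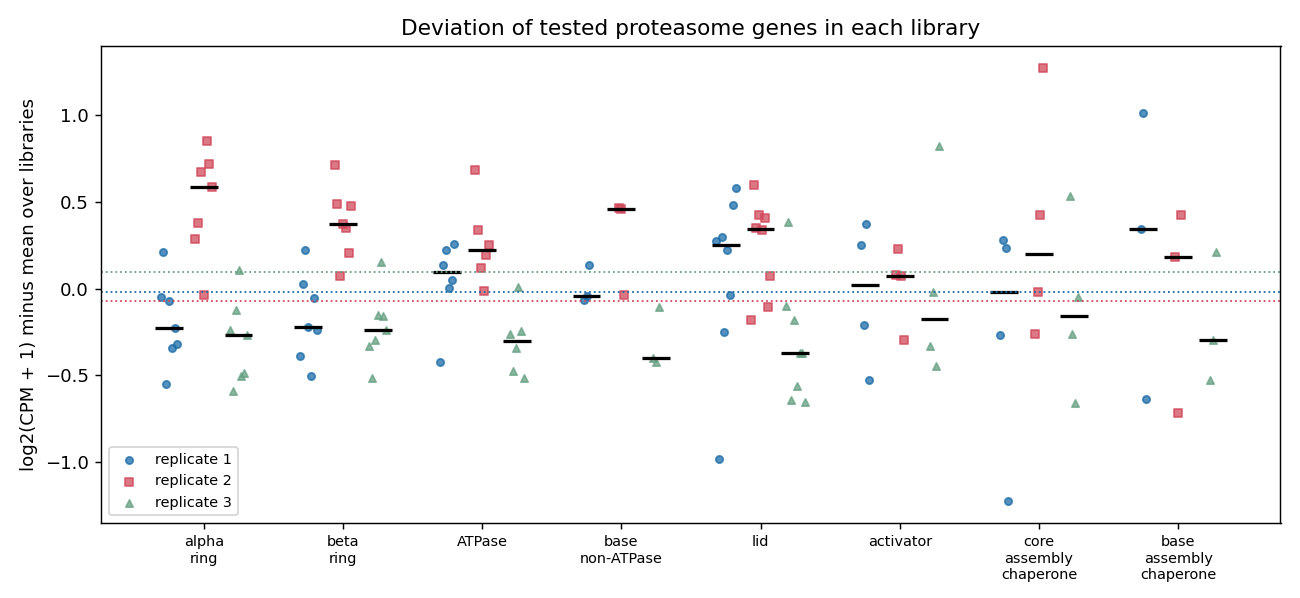
Deviation of the tested members of 8 classes from their mean over the libraries, log2(CPM + 1) scale (y axis), by class and library, with black bars for class medians and dotted lines for the median of all tested genes in each library. Alpha and beta ring genes are mostly above 0 in replicate 2 (medians 0.59 and 0.37), and Psme4 is the activator at 0.82 in replicate 3.

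Partner genes of the pathway came from 7 lists with 51 entries. Of these 47 were matched by symbol and 41 were detected. By edgeR's goodness-of-fit test (adjusted p under 0.05) 0 of the 45 tested were called as varying beyond the dispersion trend. Over all genes 39.3% were detected and 0.209% called, so 0 called is near the background. Of the 45 tested partner genes 19 were highest in replicate 1, 17 in replicate 2 and 9 in replicate 3. Pomp, the maturation factor of the core, measured 140, 211 and 93.7 CPM in replicates 1, 2 and 3 and was highest in replicate 2, like most core genes. Next by CPM on the list that holds Pomp was Akirin2, which takes the particle into the nucleus, at 59.2 ± 13.6 CPM. Nub1 followed at 55.2 ± 8.66 CPM.

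Factors that sit on the particle were detected for 8 of 8 matched genes. AI314180, which RefSeq names Ecpas and which links core and regulatory particle, measured 143 ± 17.3 CPM, Zfand5 98.4 ± 21.5 CPM and the deubiquitinase Usp14 79.0 ± 25.1 CPM. Of the shuttle factors 7 of 8 were detected. Ubqln2, Ubqln1 and Rad23b, which carry ubiquitinated proteins to the particle, measured 154 ± 43.3, 141 ± 39.9 and 117 ± 42.1 CPM, and Ddi1 had 0 counts.

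Nfe2l1, the transcription factor that raises proteasome genes when the protease is blocked, measured 199, 155 and 168 CPM in replicates 1, 2 and 3. Its relative Nfe2l2 measured 16.6 ± 4.27 CPM. Nfe2l1 was lowest in replicate 2, but its highest library was only 1.28 times its lowest. Next on that list were Mafg, a small Maf partner, at 30.1 ± 10.1 CPM and Ngly1, the glycanase that activates Nfe2l1, at 28.2 ± 7.73 CPM. Among ubiquitin genes and activating enzymes Uba1 led by CPM with 223 ± 32.3 CPM, and the ubiquitin fusion gene Rps27a measured 56.4 ± 20.1 CPM. Of the unfolding list 5 of 5 matched genes were detected, with Ufd1l at 99.5 ± 19.4, Nploc4 at 67.8 ± 9.31 and the segregase Vcp at 45.6 ± 7.12 CPM.

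Promoter windows were at hand for 42 of the members. TGACNNNGC, searched on both strands, stood in 6 of these genes (14.3%), against 13.99% of 27025 genes with a window. The 6 were Psmb5, Psmb6, Psmc6, Psmd12, Psmd9 and Psme4, and the letters read TGACGTCGC in Psmb5, TGACGGAGC in Psmb6 and TGACCCCGC in Psmd9. They began 47 bases before the start in Psmb5, 9 before it in Psmb6 and 31 before it in Psmd9. The CCAAT box stood in 15 of the 42 (35.7%), against 41.1% of all genes. Both shares were near those of all genes. A pair of further motifs were chosen after values were seen. TTCNNNGAA stood in 3 of 42 (7.14%, against 9.55%), Psmb8, Psmd2 and Psmg1. A pair of GAAA blocks 2 bases apart, the core of the interferon-stimulated response element, stood in 5 of 42 (11.9%, against 3.99%), Psmb3, Psmd4, Psmd9, Psme1 and Psmg4, and in none of the inducible catalytic genes.

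Other annotated transcripts were nearly identical to 11 of the members over 200 bases or more at 95% identity. Genes that share exons with a member were left out. The 11 were Psma3, Psma4, Psma5, Psmb3, Psmb5, Psmb6, Psmc1, Psmd2, Psmd11, Psme2 and Psme2b. The longest matches were 2590 bases at 97.0% identity for Psmd2 and 1306 bases at 95.6% for Psmc1. Levels of these genes are uncertain to the extent that reads were lost to, or taken from, the copies.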

How the data were processed

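RNA was sequenced from 3 immunopurified libraries of 1 group. The deposited files hold whole-number counts per gene, not normalized, which the authors made with STAR 2.0.0e on mm10 and HTSeq, per the submitters' processing notes. The sources used here do not give the annotation, the strand setting or the library kit. The 5 summary classes, and a row named unknown with 0 counts, were kept out of totals. Reads outside features made up 25.6% to 45.3%, reads with more than 1 alignment 16.5% to 32.7% and ambiguous reads 1.26% to 1.98%.

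CPM and CPM per kb were computed with Python 3.11.15, pandas 2.3.3 and SciPy 1.17.1. Merged exon lengths, overlaps and coordinates came from GENCODE M21 (GRCm38, the assembly of mm10), with a length for 50 members, 91.7% of detected and 71.1% of listed genes. Comparisons over all genes were made for detected genes only. Copies were searched with blastn 2.17.0 and promoters came from RefSeq. Variation was tested with edgeR 4.0.16 (R 4.3.3): TMM, intercept only, trended dispersion, goodness of fit, threshold 0.05, and DESeq2 1.42.0 as an alternative. The test was checked on simulated data, where it missed many differences of several fold, so a gene not called may still vary. The members, lists and tests were chosen with earlier results of these data known. All members are named, and of each partner list the 3 highest by mean CPM, of which 2 genes are not reported here; Tap1, Nfe2l2, Ddi1 and the GAAA and TTCNNNGAA motifs were added after values were seen. Class contrasts leave out Psma8, Psmb8 to Psmb11, Psmc3ip, Psmd5, Psmd9, Psmd10 and Psme2b.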

Additional observations from a re-analysis of the deposited data

How the results depend on the processing

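The count of detected members was 44 to 45 under thresholds of 0.5 and 2 CPM, TMM totals and leaving out each replicate. Members called as varying stayed at 0 under DESeq2 size factors, DESeq2 dispersion outliers, no filter, a mean of 5 CPM or more and without each replicate, and rose to 1 (Psmb9) of 47 with a common dispersion, which called 780 of 15336 genes. The 3 catalytic pairs kept their sign under each alternative run. Without length correction core minus ATPase became −0.22, core minus Psmd subunits −0.15, core minus activators −0.088, ATPase minus Psmd subunits 0.070, ATPase minus activators 0.14 and alpha minus beta ring 0.37. With class means core minus ATPase was −0.12 and Psmd subunits minus activators −0.061. With all genes of a prefix core minus ATPase was −0.31, ATPase minus activators 0.97 and alpha minus beta ring 0.75. With the longest transcript alpha minus beta ring was −0.060 and ATPase minus Psmd subunits 0.22. With the longest protein-coding transcript, chosen after seeing the data, alpha minus beta ring was −0.66 and Psmd subunits minus activators −0.033. Leaving out 1 replicate gave −0.078 to 0.080 for core minus ATPase and −0.12 to 0.28 for Psmd subunits minus activators, with the lowest values without replicate 2. The cause of these changes was not tested. The median deviations of the members kept their sign with TMM totals, a pseudocount of 0.1 and members of 10 CPM or more. Psma8, Psmb8, Psmb9, Psmb11 and Psmg4 each had 3 counts or fewer in at least 1 library. No paired comparison of groups was possible because there was 1 group. Contrasts between classes and between genes of a pair were taken within each library.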
